A study of Mus musculus with 12 samples.

Results

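The B cell identity genes followed in sorted mouse leukaemia cells were 9: Pax5, Ebf1, Cd79a, Cd79b, Cd22, Cd72, Ms4a1, Cd37 and Blk. They were taken as a named list. For each gene, all CpGs from 5 kb outside either end through the mm10 gene body were summed, both strands together, where a CpG had at least 10 calls in all 12 libraries. All 9 genes had the minimum of 3 such CpGs, among 17323 measured genes of 21631 protein-coding genes. Together they held 634 of 1052856 common CpGs and 54 of 87020 non-overlapping tiles of 1 kb with at least 3 CpGs.

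The cells were CMM cells, a GFP-positive mouse model of acute myeloid leukaemia with inv(16), placed by vein into C57BL/6 mice. Treatment began when GFP-positive cells were about 1% of blood, and was given into the vein every other day, 3 times. CD11b-positive libraries (4) came from GFP-positive, CD11b-positive spleen cells of mice given CpG-STAT3dODN, which links a CpG oligonucleotide to a decoy for the transcription factor STAT3. CD11b-negative libraries (4) came from the GFP-positive, CD11b-negative cells of such mice. PBS libraries (4) came from all GFP-positive cells of mice given PBS, with no sort on CD11b, so that in comparisons with PBS the effects of treatment and of sorting on CD11b cannot be told apart. Spleens were taken 1 day after the last dose. The series set out to compare the induced CD11b-positive cells with the CD11b-negative bulk and with cells of control mice. Nothing in the labels ties the libraries to separate mice, and the spread behind each p-value may be technical.

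Pax5 and Ebf1 encode transcription factors that set and hold B cell identity. Cd79a and Cd79b encode the signalling chains of the B cell receptor. Cd22, Cd72, Ms4a1 (CD20) and Cd37 encode surface proteins of B cells, and Blk a Src-family kinase that acts below the receptor. In normal haematopoiesis regulatory DNA of many B lineage genes loses methylation as cells enter the B lineage, while myeloid cells keep many such genes silent. Whether each gene of the list follows this pattern was not tested. Reduced representation bisulfite sequencing (RRBS) reads restriction fragments and favours CpG-dense DNA. Each call is 1 read at 1 CpG, methylated or not. A methylation level is the percentage of methylated calls and averages over all cells and alleles of a sample, so more cells with a methylated site and more methylation per cell cannot be told apart.

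The libraries held 112671408 to 157223205 calls. The Y share, the calls on 8 single-copy Y chromosome genes scaled to 1e6 autosomal calls, averaged 28.5 ± 8.58 in CD11b-positive, 18.2 ± 14.8 in CD11b-negative and 10.9 ± 5.66 in PBS libraries (SD, n = 4 each). The labels do not give the sex of the cells or hosts. CD11b-positive library 2 (41.3) and CD11b-negative library 2 (40.2) stood apart from the others of their group. These libraries also had the highest unweighted mean over the 9 genes, 45.7% in CD11b-positive library 2 and 45.05% in CD11b-negative library 2. The other CD11b-positive libraries had means of 38.6 to 40.6%, the other CD11b-negative libraries 30.4 to 35.5%, and PBS libraries 28.8 to 32.9%. Over all common CpGs, CD11b-positive library 2 (35.9%) and CD11b-negative library 2 (35.5%) were the highest too. There the other CD11b-positive libraries had 34.2 to 34.5%, the other CD11b-negative libraries 32.1 to 32.5% and PBS libraries 31.0 to 31.7%. Every CD11b-positive library had a higher Y share than every PBS library. A two-sided exact permutation test over the 70 assignments gave p = 0.0286, the smallest that 4 against 4 libraries allow, and the adjusted p over 3 comparisons was 0.0857, which did not pass 0.05. Its part in the methylation results was not tested beyond the values given beside them.

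**Figure D1:**
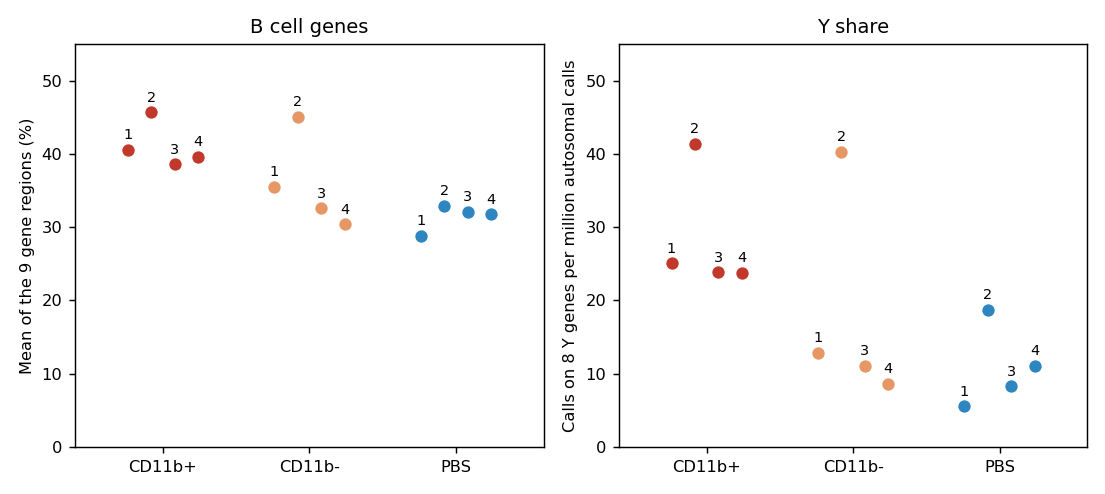
Left, the unweighted mean methylation (%) over the 9 gene regions in each library, and right, the Y share (calls on 8 Y genes per 1e6 autosomal calls), for CD11b-positive, CD11b-negative and PBS groups, with the replicate number above each point. CD11b-negative library 2 lies at 45.05% and a Y share of 40.2, among the CD11b-positive libraries rather than the other CD11b-negative ones.

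Promoter windows were available for Pax5, Ebf1 (2 starts), Cd79a, Cd22, Cd72 and Cd37 from RefSeq (GRCm38.p6, the build of mm10), each 250 bases before to 50 after an annotated start. The windows of Pax5, Ebf1, Cd79a and Cd22 are shown because they span the range from CpG-rich to CpG-poor and show what RRBS read there. Capitals mark CG dinucleotides with at least 1 call in any library, and all other bases are in lower case, 5′ to 3′ on the gene's strand. The windows are Pax5 at chr4:44710645-44710944 (minus strand), the inner Ebf1 start at chr11:44619978-44620277 (plus), Cd79a at chr7:24897247-24897546 (plus) and Cd22 at chr7:30878979-30879278 (minus).
Pax5: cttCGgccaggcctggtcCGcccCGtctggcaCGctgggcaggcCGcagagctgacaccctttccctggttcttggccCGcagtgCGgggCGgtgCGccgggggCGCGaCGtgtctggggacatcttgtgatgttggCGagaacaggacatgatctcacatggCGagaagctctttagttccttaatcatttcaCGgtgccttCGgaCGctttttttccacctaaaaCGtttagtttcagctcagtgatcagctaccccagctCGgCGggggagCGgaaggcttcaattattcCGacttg
Ebf1: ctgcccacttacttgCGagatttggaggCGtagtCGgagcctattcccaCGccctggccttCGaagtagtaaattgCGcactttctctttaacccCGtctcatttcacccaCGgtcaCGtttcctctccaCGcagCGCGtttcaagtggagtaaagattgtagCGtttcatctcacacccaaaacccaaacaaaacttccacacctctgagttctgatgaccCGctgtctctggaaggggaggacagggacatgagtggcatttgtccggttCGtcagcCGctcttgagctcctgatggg
Cd79a: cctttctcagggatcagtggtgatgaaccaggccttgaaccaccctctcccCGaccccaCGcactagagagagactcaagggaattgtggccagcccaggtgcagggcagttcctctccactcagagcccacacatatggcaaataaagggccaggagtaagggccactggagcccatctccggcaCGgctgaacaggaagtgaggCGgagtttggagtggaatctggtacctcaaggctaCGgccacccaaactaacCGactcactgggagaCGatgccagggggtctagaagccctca
Cd22: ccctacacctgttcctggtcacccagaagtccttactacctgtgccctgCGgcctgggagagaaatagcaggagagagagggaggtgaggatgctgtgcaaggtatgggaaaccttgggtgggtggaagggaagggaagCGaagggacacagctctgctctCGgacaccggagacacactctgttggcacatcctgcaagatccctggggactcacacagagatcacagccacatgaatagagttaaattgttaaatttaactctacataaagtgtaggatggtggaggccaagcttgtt

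The Pax5 window held 23 CG dinucleotides, the inner Ebf1 window 17, the outer Ebf1 window 9, Cd79a 8, Cd37 8, Cd72 7 and Cd22 4. The CG dinucleotide reads the same on both strands, and the median over 32851 promoter windows of the same length was 7. At least 23 were found in 21.5% of all windows, and at most 4 in 38.0%. In the windows of these genes, 67 of 69 CpGs outside a CCGG site had a call in some library, against 1 of 7 inside CCGG. Over all windows the shares were 89.9% of 318844 CpGs outside CCGG and 34.8% of 39717 inside, and 41.8% and 0.146% were common to all libraries. The CG letters printed in lower case above lie in CCGG and had no call.

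Few promoter calls were made, and the groups were not tested in these windows. The Pax5 window had 8 methylated of 250 calls in CD11b-positive libraries, 31 of 246 in CD11b-negative libraries and 31 of 289 in PBS libraries. By library, the Pax5 counts were 1 of 9, 1 of 138, 4 of 77 and 2 of 26 in the CD11b-positive group, against 4 of 54, 10 of 81, 9 of 90 and 8 of 64 in the PBS group. The shares overlapped, and CD11b-positive library 2 gave 138 of the 250 calls of its group. In the inner Ebf1 window 53 of 438 calls were methylated in CD11b-positive, 72 of 497 in CD11b-negative and 121 of 591 in PBS libraries. By library, the Ebf1 counts were 0 of 88, 13 of 120, 24 of 104 and 16 of 126 in the CD11b-positive group, against 37 of 162, 31 of 150, 21 of 131 and 32 of 148 in the PBS group. The third CD11b-positive library had a higher share than every PBS library and the others lower shares, so the groups overlapped. The Cd79a window had 36 methylated of 82 calls in CD11b-positive libraries, 5 of 20 in CD11b-negative libraries and 0 of 2 in PBS libraries, too few for a comparison with PBS. Cd22 had 9 methylated of 10, 10 of 15 and 2 of 2 calls in CD11b-positive, CD11b-negative and PBS libraries. No call was methylated at Cd72, with 15 calls in CD11b-positive, 16 in CD11b-negative and 10 in PBS libraries. Whether reads carried molecular identifiers is not given in the sources used here. Reads may not be independent molecules, so counts cover counting error at best.

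CD11b-positive cells carried more methylation than PBS cells over most of the 9 gene regions. Blk, Cd37, Ms4a1 and Cd22 rose by 23.4, 19.99, 13.2 and 13.0 percentage points. Ebf1 and Pax5 were 7.28 and 5.08 points higher, and Cd79a, a region of almost unmethylated CpGs, differed by 0.112 points. A call needed an adjusted p under 0.05 (quasi-binomial logistic model with moderated dispersion, F test, Benjamini-Hochberg over 17323 regions) and at least 10 points. Of the 9 genes 4 were called higher and 0 lower, where 18.1% of all regions were called higher and 3.52% lower. The groups did not overlap, CD11b-positive above PBS, in 6 of the 9 genes, against 43.3% of all regions, and CD11b-positive below PBS in 0, against 5.21%. The median difference was 7.28 points over the 9 genes and 2.88 over all regions.

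The transcription factor genes had many CpGs and small differences. Pax5 (chr4:44524748-44710694, 291 CpGs of which 255 lie inside the gene) was methylated at 28.2, 31.8, 28.0 and 29.1% in CD11b-positive libraries, 25.02, 28.9, 24.99 and 23.4% in CD11b-negative libraries and 22.9, 24.3, 25.6 and 23.9% in PBS libraries. Each CD11b-positive library lay above each PBS library, and CD11b-negative library 2 lay with the CD11b-positive ones. Pax5 averaged 29.3 ± 1.74% in CD11b-positive and 24.2 ± 1.12% in PBS libraries (SD, n = 4 each, adjusted p = 0.00313 by the quasi-binomial model), under the 10 points a call needed. Ebf1 (chr11:44618100-45008096, 123 CpGs, 107 inside the gene) was methylated at 33.4, 38.9, 33.3 and 35.0% in CD11b-positive, 30.5, 36.5, 30.6 and 30.5% in CD11b-negative and 26.99, 28.3, 28.2 and 28.0% in PBS libraries. All CD11b-positive and all CD11b-negative libraries were above all PBS libraries, without overlap. The means were 35.2 ± 2.64% in CD11b-positive and 27.9 ± 0.605% in PBS libraries (adjusted p = 0.00272, quasi-binomial model).

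The receptor chains gave no call. Cd79a (chr7:24897497-24901858) had 29 common CpGs, and 0 of them lay inside the gene: all were beyond its higher end, and 14 of these were in the neighbouring gene Arhgef1. The region was methylated at 0.993, 0.549, 0.535 and 0.522% in CD11b-positive, 0.679, 0.775, 0.777 and 0.669% in CD11b-negative and 0.366, 0.479, 0.701 and 0.606% in PBS libraries. The groups overlapped (adjusted p = 0.654 for CD11b-positive against PBS, quasi-binomial model), and without CD11b-positive library 1 the difference of 0.112 points became -0.002506. Cd79b (chr11:106311341-106314562, 7 CpGs, 2 inside the gene) had levels of 27.1, 20.8, 22.7 and 25.6% in CD11b-positive, 20.2, 20.2, 19.9 and 14.5% in CD11b-negative and 14.9, 22.9, 22.7 and 19.6% in PBS libraries. CD11b-positive and PBS libraries overlapped (difference 4.01 points, adjusted p = 0.437, quasi-binomial model). The CpGs inside Cd79b, 6 bases apart, averaged 10.2 ± 2.78% and 2.99 ± 1.205% in CD11b-positive, against 13.6 ± 5.78% and 2.56 ± 1.00% in PBS libraries.

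Among the surface proteins, Cd37, Ms4a1 and Cd22 rose. Cd37, a tetraspanin gene (chr7:45233632-45239340, 54 CpGs), was methylated at 66.6, 81.9, 68.6 and 66.1% in CD11b-positive, 60.9, 80.7, 50.5 and 50.03% in CD11b-negative and 45.8, 55.5, 51.2 and 50.8% in PBS libraries. CD11b-positive and PBS libraries did not overlap, and CD11b-negative libraries reached from the PBS level to that of CD11b-positive library 2. The means were 70.8 ± 7.47% in CD11b-positive and 50.8 ± 3.98% in PBS libraries (adjusted p = 0.00294, quasi-binomial model). Of the Cd37 CpGs 13 lay inside the gene, and 40 lay in Slc6a16 (33) and Tead2 (7). The gene body alone gave a difference of 13.5 points (adjusted p = 0.00588).

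Ms4a1 encodes CD20, the target of therapeutic antibodies against B cell tumours. Its region (gene at chr19:11249679-11266149) had 5 CpGs, all inside the gene within 1 tile, and 130 to 855 calls per library. Levels were 89.0, 90.1, 88.4 and 84.0% in CD11b-positive, 81.5, 90.6, 76.0 and 71.4% in CD11b-negative and 70.0, 76.2, 76.7 and 75.9% in PBS libraries. All CD11b-positive libraries were above all PBS libraries, with means of 87.9 ± 2.68% and 74.7 ± 3.15% (adjusted p = 0.00214, quasi-binomial model). Half-widths of the 95% Wilson intervals were 2.05 to 6.64 points per library. Each of the 5 CpGs had a higher mean in CD11b-positive libraries, from 93.0 ± 1.998% against 85.0 ± 2.55% in PBS at position 11260796 to 85.2 ± 7.58% against 64.8 ± 6.01% at position 11260848.

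Cd22, an inhibitory receptor that binds sialic acid (chr7:30865404-30880342, 56 CpGs, 47 inside the gene and 9 in Ffar1), was methylated at 55.3, 67.0, 54.6 and 57.3% in CD11b-positive, 44.4, 68.4, 50.2 and 41.0% in CD11b-negative and 43.7, 45.2, 46.4 and 47.0% in PBS libraries. The PBS libraries were tight and lay below all CD11b-positive libraries. Means were 58.6 ± 5.75% in CD11b-positive and 45.6 ± 1.48% in PBS libraries (adjusted p = 0.00401, quasi-binomial model). Cd72, a further inhibitory co-receptor (chr4:43447724-43455102, 64 CpGs), had low levels of 9.37, 11.9, 11.7 and 10.4% in CD11b-positive, 12.4, 10.7, 10.4 and 11.99% in CD11b-negative and 8.90, 10.1, 8.90 and 9.74% in PBS libraries. CD11b-positive and PBS libraries overlapped (difference 1.44 points, adjusted p = 0.164, quasi-binomial model). Most of the Cd72 region's CpGs, 57 of 64, lay in the neighbouring gene Tesk1 and 6 inside Cd72. With 2 kb instead of 5 kb around the gene, the Cd72 difference was 12.6 points and was called (adjusted p = 0.0213, quasi-binomial model). That window takes in 3 CpGs of Tesk1 at chr4:43446001-43447000. The Cd72 gene body alone gave 1.39 points and was not called (adjusted p = 0.725, quasi-binomial model).

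Blk, the kinase gene (chr14:63372837-63417187), had 5 CpGs and 324 to 540 calls per library. Its levels were 55.1, 67.9, 39.4 and 48.7% in CD11b-positive, 43.5, 68.8, 29.7 and 29.8% in CD11b-negative and 25.7, 33.1, 28.5 and 30.1% in PBS libraries. Every CD11b-positive library was above every PBS library, with means of 52.8 ± 11.99% and 29.4 ± 3.09% (adjusted p = 0.0190, quasi-binomial model). The rise rested on CpGs outside the gene. At position 63372137, 700 bases outside, the mean was 46.9 ± 10.98% in CD11b-positive and 18.5 ± 3.87% in PBS libraries. At position 63370420 it was 51.0 ± 23.7% and 13.1 ± 4.20%, from 11 to 43 calls per library. The CpG at 63372137 held 215 to 416 calls per library and those inside the gene 19 to 42 each. The summed Blk level therefore came mostly from 1 CpG. As an unweighted mean over CpGs, the Blk difference was 18.3 points (adjusted p = 0.0451, limma). The 3 CpGs inside Blk averaged 70.3 ± 17.4% in CD11b-positive and 62.0 ± 5.99% in PBS libraries, overlapping, with a gene-body difference of 8.35 points (adjusted p = 0.602).

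**Figure D2:**
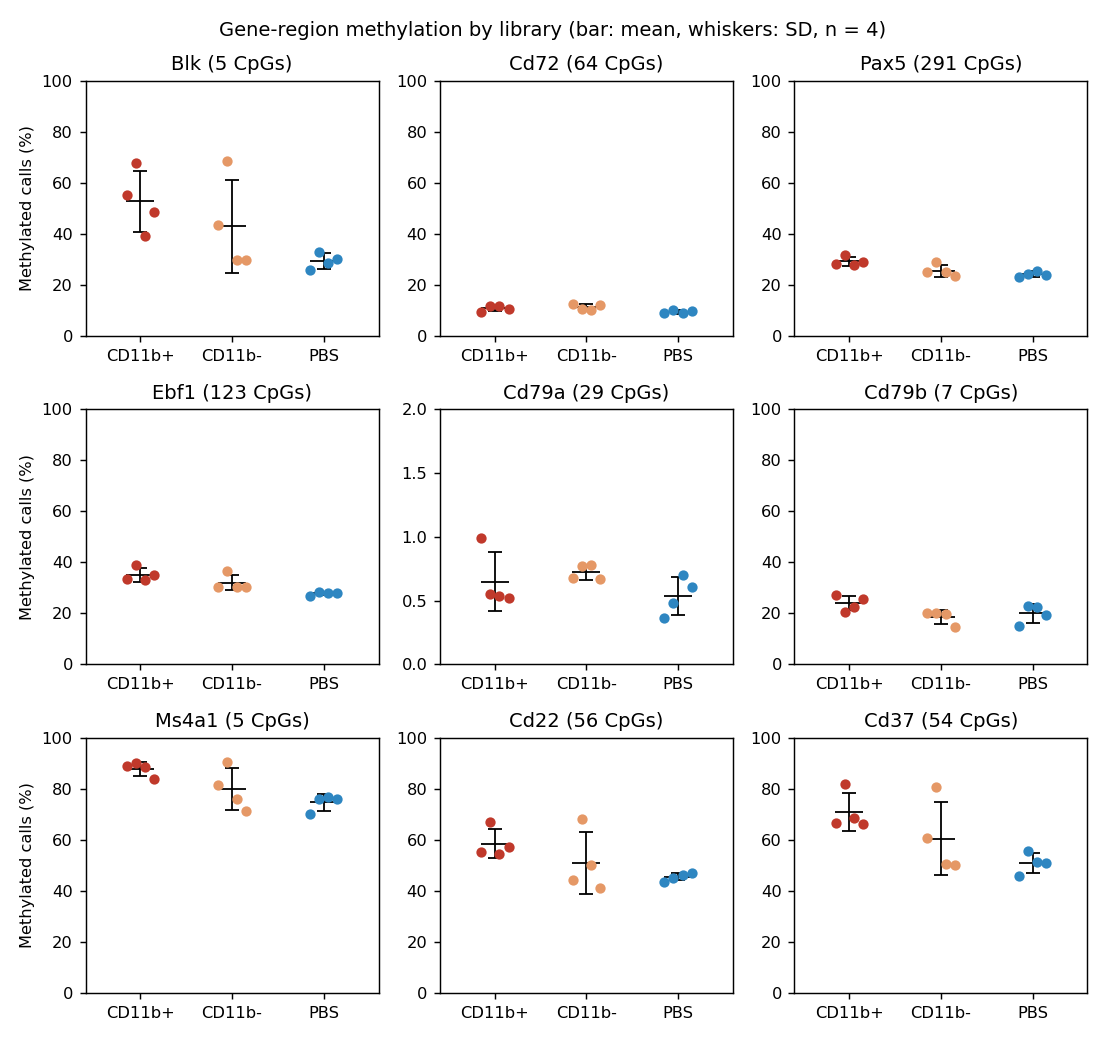
Methylation (% of calls) of each of the 9 gene regions, one point per library, with the mean and SD (n = 4) of CD11b-positive (CD11b+), CD11b-negative (CD11b-) and PBS groups; the Cd79a axis ends at 2%. CD11b-positive libraries lie above all PBS libraries at Blk, Pax5, Ebf1, Ms4a1, Cd22 and Cd37, while Cd79a stays under 1% in every library.

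These calls changed when the Y share was a term in the fit and when another spread was allowed. With the log2 Y share as a term in a fit of all 12 libraries, 0 of the 9 genes and 0 of 17323 regions were called for CD11b-positive against PBS, and the differences were 1.88 points for Blk, 4.16 for Ms4a1, 0.333 for Cd22 and 2.56 for Cd37. Because the Y share moved with the groups, the share and the group cannot be told apart. Fitted with all 12 libraries sharing one spread, Cd37 and Ms4a1 were called, and Blk (adjusted p = 0.0714) and Cd22 (0.0579) were not. That fit called 2533 of all 17323 regions higher, against 3132 in the fit of the 8 libraries compared. Without CD11b-positive library 2, the differences of the 4 called genes were 18.4 points for Blk, 16.3 for Cd37, 12.4 for Ms4a1 and 10.2 for Cd22. All 4 stayed called, and 2502 of all 17323 regions were called higher.

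**Figure D3:**
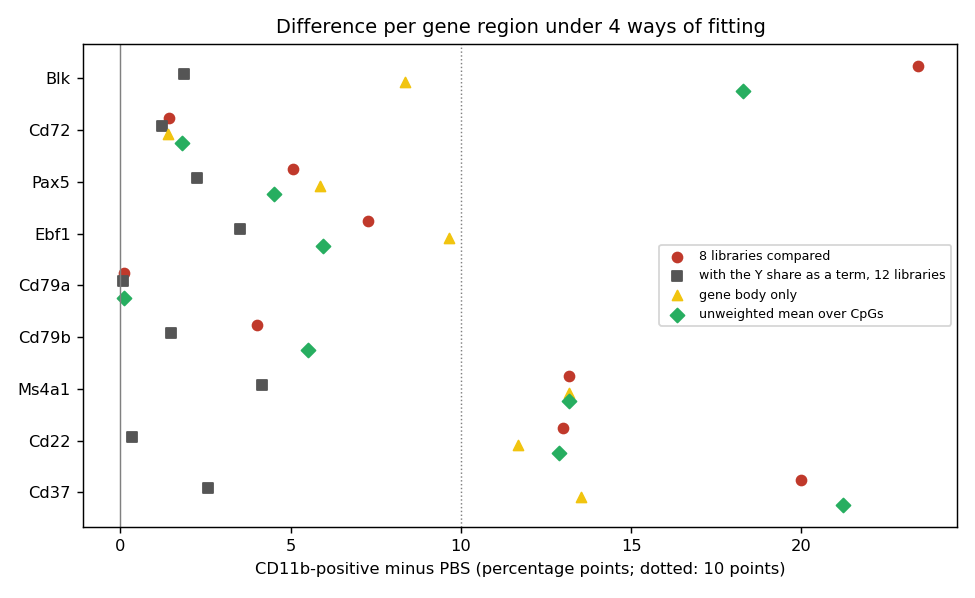
Difference in percentage points, CD11b-positive minus PBS, for each gene region in 4 fits: the 8 libraries compared, the Y share as a term over 12 libraries, the gene body only, and an unweighted mean over CpGs. Blk lies at 23.4 points in the fit of 8 libraries, at 8.35 for the gene body and at 1.88 with the Y share.

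Within the gene regions, which include 5 kb outside each end, tiles of 1 kb showed where methylation differed. Of 54 tiles 24 were called higher in CD11b-positive than in PBS cells and 0 lower, against 32.5% of all tiles higher and 3.76% lower. In 26 tiles all CD11b-positive libraries were above all PBS libraries (50.3% of all tiles), and in 1 below (5.88%). By region, called tiles were 8 of 18 in Pax5, 6 of 14 in Ebf1, 4 of 7 in Cd22 and 4 of 6 in Cd37. They were 1 of 4 in Cd72 and 1 of 1 in Ms4a1, with 0 of 1 in Blk, 0 of 1 in Cd79b and 0 of 2 in Cd79a. Of the 24 called tiles 18 lay inside a gene, 4 below its lower end and 2 above its higher end. In Cd37 the called tile inside the gene was chr7:45235001-45236000, and the other called tiles lay beyond the gene's ends. The share of called tiles depended on the level in PBS. Of the 34 tiles of these genes at 20 to 80% in PBS, 23 were called higher (67.6%), against 65.1% of all tiles at that level, with median differences of 14.9 and 14.1 points. Of 9 tiles under 5% in PBS 0 were called, with medians of 0.0862 points for these genes and 0.0831 for all tiles. Between 5 and 20% in PBS 1 of 7 tiles was called higher (14.3%), against 27.8% of all tiles, with medians of -1.42 and 0.866 points. Above 80% 0 of 4 were called, against 1.80% of all tiles, with medians of 3.99 and 3.83 points.

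**Figure D4:**
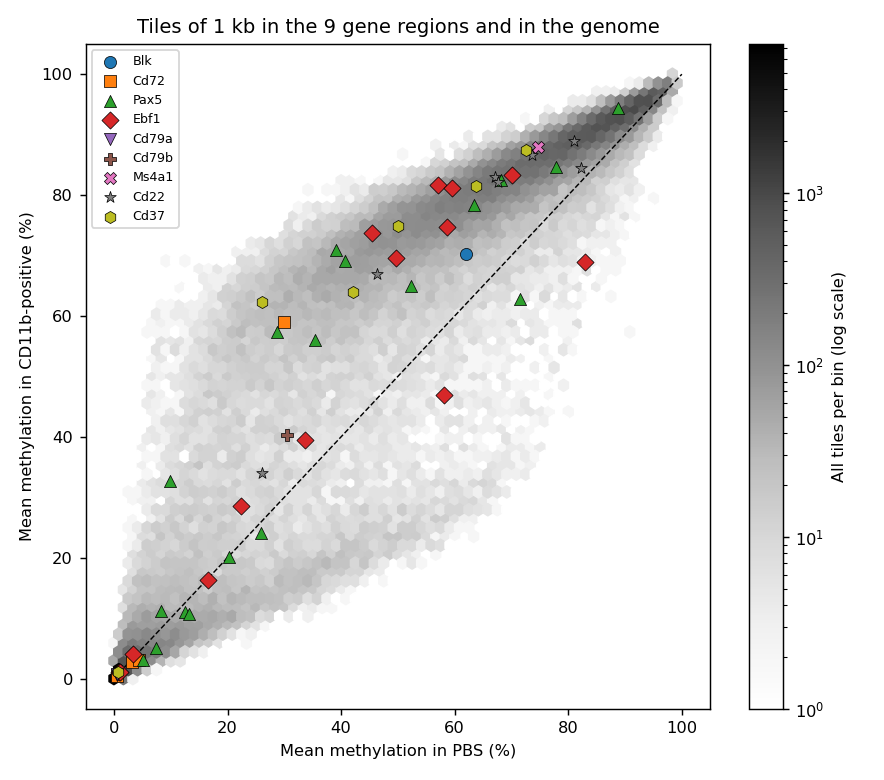
Mean methylation (%) of 1 kb tiles in CD11b-positive (vertical axis) against PBS libraries (horizontal), for all 87020 tiles in grey (log scale of tiles per bin) and the 54 tiles of the 9 genes as coloured symbols; the dashed line marks equal values. Between 20 and 80% in PBS most tiles of the genes lie above the line, with Ebf1 at chr11:44686001-44687000 (46.9% in CD11b-positive, 58.2% in PBS) and 3 Pax5 tiles below it.

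The largest tile gain was in Cd37 at chr7:45235001-45236000 (9 CpGs), 3.34 kb into the gene. Its levels were 50.4, 84.4, 65.9 and 48.4% in CD11b-positive and 16.2, 26.8, 28.6 and 32.9% in PBS libraries, without overlap (means 62.2 ± 16.7% and 26.1 ± 7.09%, adjusted p = 0.00548, quasi-binomial model over 87020 tiles). In Pax5 the tile at chr4:44598001-44599000, 112 kb into the gene, was at 75.1, 82.7, 64.1 and 61.8% in CD11b-positive and 36.2, 48.3, 37.2 and 34.9% in PBS libraries. Every CD11b-positive library was above every PBS library, a gain of 31.8 points (adjusted p = 0.00255, quasi-binomial model). The Cd72 tile at chr4:43446001-43447000, within Tesk1, had 59.0 ± 14.0% in CD11b-positive and 29.9 ± 10.2% in PBS libraries, a gain of 29.1 points (adjusted p = 0.0264). Ebf1 gained 28.3 points at chr11:44800001-44801000, with 73.8 ± 13.1% in CD11b-positive and 45.5 ± 6.00% in PBS libraries (adjusted p = 0.0144), and Cd22 gained 20.5 points at chr7:30874001-30875000, with 66.9 ± 14.3% and 46.4 ± 1.26% (adjusted p = 0.0140).

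Along Pax5 and Ebf1 the called tiles lay far from the starts. The 8 called Pax5 tiles lay 112 to 190 kb from the annotated start, and the 6 called Ebf1 tiles 159 to 364 kb from the outer start. Near the start, Pax5 held CpG-dense tiles of low methylation. The tile at chr4:44704001-44705000 (42 CpGs) was at 3.22, 1.58, 3.34 and 3.83% in CD11b-positive and 5.56, 4.65, 5.25 and 5.18% in PBS libraries, the only one of the 54 tiles with all CD11b-positive libraries below all PBS libraries. Its difference was -2.17 points, below the size a call needed. The Ebf1 tile across the start (chr11:44618001-44619000, 22 CpGs) was at 1.15 ± 0.165% in CD11b-positive and 1.07 ± 0.206% in PBS libraries, a difference of 0.0862 points. At chr11:44685001-44686000 Ebf1 had 68.9 ± 15.2% in CD11b-positive and 83.0 ± 6.26% in PBS libraries, the largest loss of the gene and overlapping (adjusted p = 0.0869). Tiles with at least 15 CpGs were called higher in 2 of 14 and those with fewer in 22 of 40. Over all tiles 3.50% and 39.6% were called higher.

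**Figure D5:**
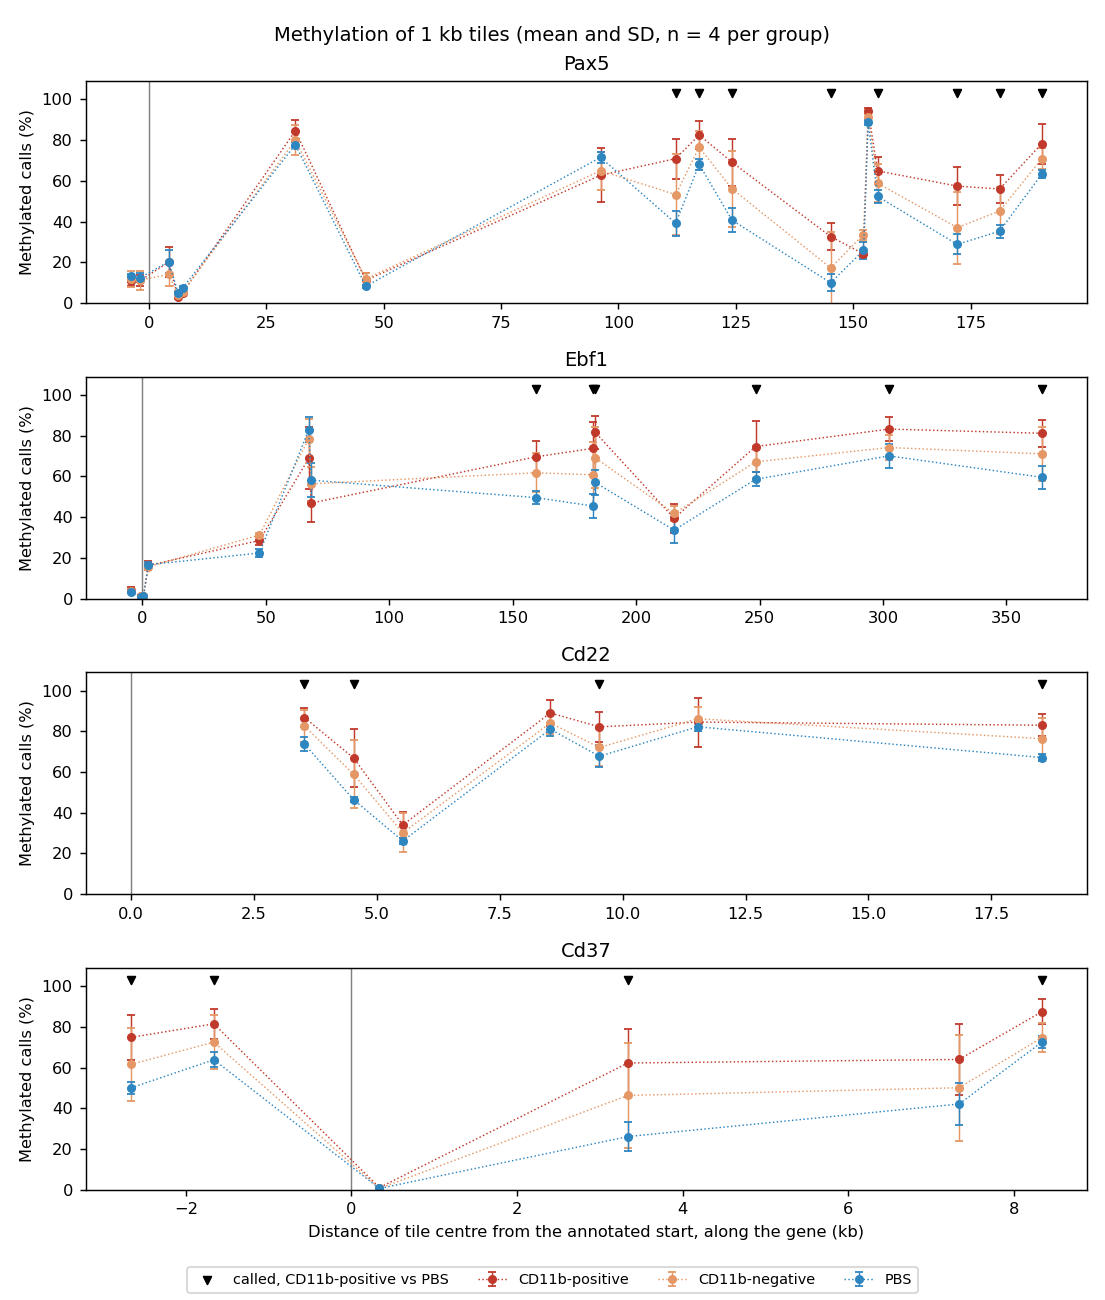
Methylation (%) of 1 kb tiles (mean and SD, n = 4 per group) in Pax5, Ebf1, Cd22 and Cd37 by distance from the annotated start along the gene (kb), with triangles over tiles called between CD11b-positive and PBS. Called tiles lie away from the starts of Pax5 and Ebf1, and tiles at the starts of Ebf1 and Cd37 stay near 1% in each group.

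CD11b-negative cells were set against PBS cells to ask what the treated bulk shows. No gene was called among the 9 (quasi-binomial model, lowest adjusted p = 0.751), and 0 of 17323 regions (0%) were called. At an unadjusted p under 0.05, 1 of the 9 genes passed, against 5.17% of all regions, and edgeR's quasi-likelihood test called 0. The median difference was 4.13 points over the 9 genes and 0.165 over all regions. Ebf1 (32.0 ± 2.98% in CD11b-negative, 27.9 ± 0.605% in PBS libraries) and Cd72 (11.4 ± 1.00% and 9.41 ± 0.606%) did not overlap between groups, 2 of 9 genes against 5.28% of all regions, and 0 genes lay lower without overlap, against 0.56%. Blk averaged 43.0 ± 18.4% in CD11b-negative and 29.4 ± 3.09% in PBS libraries, and Cd37 60.5 ± 14.3% and 50.8 ± 3.98%. CD11b-negative library 2 was the highest of its group at Blk, Cd37, Ms4a1 and Cd22, and also at Ebf1 and Pax5. Without it the Blk difference was 4.97 points instead of 13.6 and that of Cd37 2.99 instead of 9.70. That of Ms4a1 was 1.63 instead of 5.20 and that of Cd22 -0.369 instead of 5.42. Ebf1 then differed by 2.64 points instead of 4.13 and Pax5 by 0.273 instead of 1.37. No tile of the 54 was called either, and 0% of all tiles. At an unadjusted p under 0.05, 4 tiles passed in the quasi-binomial model, against 9.92% of all tiles. By edgeR's quasi-likelihood test at that level 3 passed, against 5663 of all 87020 tiles. Of the tiles 6 lay higher without overlap, against 10.2% of all tiles, and 0 lower, against 0.393%.

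CD11b-positive and CD11b-negative cells of treated mice were compared last, the comparison in which both groups had the treatment. Of the 9 genes 0 were called (quasi-binomial model, lowest adjusted p = 0.242), and 0% of all regions. Of the 9 genes 1 passed an unadjusted p under 0.05, against 20.5% of all regions, and edgeR's quasi-likelihood test called 0. The median difference was 5.33 points over the 9 genes and 2.78 over all regions, and 7 of 9 differences were above 0. Cd37 averaged 70.8 ± 7.47% in CD11b-positive and 60.5 ± 14.3% in CD11b-negative libraries, Blk 52.8 ± 11.99% and 43.0 ± 18.4%, and Ms4a1 87.9 ± 2.68% and 79.9 ± 8.26%. Only Cd79b did not overlap (24.02 ± 2.83% in CD11b-positive, 18.7 ± 2.80% in CD11b-negative libraries), 1 of 9 genes against 5.2% of all regions, and 0 genes lay lower without overlap, against 0.208%. Of the tiles 0 were called, 1 lay higher without overlap, in Cd79b (1.99% of all tiles), and 2 lower, in Pax5 and Cd79a (0.583%). Both comparisons with CD11b-positive cells share its libraries, as both comparisons with PBS share the PBS libraries.

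In this comparison libraries of the same number had correlated deviations over all regions (0.245 to 0.908), and library 2 stood apart in both groups. What a number shares is not given in the labels. With the number as a block, 0 of the 9 genes and 0.242% of all regions were called higher, and 9 of the 54 tiles, against 11.5% of all tiles. By region, with the 5 kb outside each end, the called tiles were 4 in Pax5, 3 in Cd37, 1 in Cd72 and 1 in Ebf1. The Pax5 tile at chr4:44598001-44599000 was at 70.9 ± 9.78% in CD11b-positive and 53.2 ± 19.8% in CD11b-negative libraries, a difference of 17.7 points (adjusted p = 0.00763 with the block). The Cd37 tile at chr7:45235001-45236000 was at 62.2 ± 16.7% and 46.3 ± 26.0%, 15.9 points apart (adjusted p = 0.0328 with the block). Without CD11b-negative library 2, Ms4a1, Cd22 and Cd37 were called at 11.5, 13.4 and 17.01 points (adjusted p = 0.0149, 0.0197 and 0.0194, quasi-binomial model), 3 of 9 genes against 16.2% of all regions. With library 2 left out of both groups, an alternative chosen after seeing the data, the same 3 genes were called at 10.8, 10.5 and 13.3 points, against 11.9% of all regions.

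Markers of other cell types were read in the same way for CD11b-positive against PBS. Of 45 other B cell genes 39 were measured, and 8 were called higher (20.5%) and 1 lower, near the 18.1% of all regions, with a median difference of 5.17 points. Dapp1, a B cell adaptor gene (21 CpGs), had 50.6 ± 10.9% in CD11b-positive and 23.4 ± 4.35% in PBS libraries. Bank1, a scaffold gene of B cell signalling (4 CpGs), had 64.3 ± 8.44% and 40.6 ± 5.48%. Il7r, the interleukin 7 receptor gene (4 CpGs), had 84.6 ± 5.29% and 65.3 ± 2.22%. Rag1, which cuts antigen receptor genes (17 CpGs), had 73.9 ± 3.98% and 60.1 ± 2.75%, and Pik3ap1, an adaptor gene (98 CpGs), 47.4 ± 2.35% and 36.4 ± 4.24%. Dntt, the terminal transferase gene of lymphoid progenitors, fell to 20.5 ± 7.18% in CD11b-positive, against 33.9 ± 1.85% in PBS libraries, from 3 CpGs.

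Counts for the lists of other lineages stand beside 18.1% of all regions called higher, 3.52% called lower and a median difference of 2.88 points, and the lists themselves were not tested. Of 20 T cell genes 10 were called higher and 1 lower, with Cd8a at 68.8 ± 6.79% in CD11b-positive and 45.3 ± 5.44% in PBS libraries and Bcl11b at 56.2 ± 7.57% and 68.9 ± 4.88%. Of 12 erythroid genes 4 were called higher, led by Slc4a1 (66.7 ± 8.06% and 45.6 ± 5.04%), and of 15 myeloid genes 5, led by Itgam, which encodes CD11b itself (70.7 ± 8.39% and 48.5 ± 3.74%). Of 9 stem and progenitor genes 2 were called higher (22.2%), led by Runx1 (56.9 ± 6.36% and 42.2 ± 4.04%). Of 8 stromal and endothelial genes 3 were called higher, led by Pecam1 (62.7 ± 11.4% and 38.5 ± 3.39%), and 1 lower, Cxcl12 (29.7 ± 7.85% and 47.5 ± 6.29%). The median differences were 11.1, 6.61, 5.46, 7.33 and 8.51 points for the T cell, erythroid, myeloid, stem and stromal lists, against 7.28 for the 9 genes. No gene of any list was called in the other comparisons. The part that B cells or other host cells among the sorted cells have in these values was not tested.

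The genes whose region level over the 12 libraries was most like the mean of the 9 genes were Ak1, Odf3, Scgb1c1, Psme2b and Itgax, each with a Pearson r of 0.996, as a description. Of 9395 candidate genes with a range of at least 10 points, 3578 had an r over 0.9. Itgax, which encodes CD11c, averaged 81.7% in CD11b-positive, 69.4% in CD11b-negative and 59.1% in PBS libraries. All points share their libraries, and so their depth and Y share.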

How the data were processed

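RRBS libraries of 3 groups of 4 were analysed. The deposited files hold raw counts: methylated and unmethylated reads per CpG cytosine and strand, 1 library per file. The tools listed are cutadapt 2.7, Trim Galore 0.6.4, methylKit 1.20.0 and Bismark, with mm10 as the build, per the submitters' processing notes. For Bismark's version and settings, and for duplicate reads, nothing is given in the sources used here.

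Calls of both strands were summed, CpGs on autosomes and X with at least 10 calls in all 12 libraries were kept, and calls were added per gene region (5 kb outside each end through the gene) and per 1 kb tile with at least 3 CpGs. Gene ends and promoter windows came from RefSeq tables of GRCm38.p6. Exons and introns were not used here. Sums weight CpGs by depth. Summed calls (methylated, unmethylated) entered a logistic model of the quasi-binomial family in R 4.3.3, with F tests. Its Pearson dispersion was moderated with squeezeVar of limma 3.58.1 in 5 bins of mean level with edges of 5, 20, 80 and 95%, with a floor of 1. Only the 8 libraries compared entered a fit, without a replicate block, and p-values were adjusted over all 17323 regions or 87020 tiles. The steps were tested on simulated data.

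Libraries with the same number were compared by the correlation of their deviations from the group means. The correlations were 0.245, 0.908, 0.598 and 0.664 for CD11b-positive with CD11b-negative, in the order of the numbers, which come from the sample titles. Correlations between different numbers are not given here, and the labels do not say what a number shares, so a pairing is not settled. For CD11b-positive with PBS the correlations were 0.218, 0.727, 0.212 and -0.0978, and for CD11b-negative with PBS 0.480, 0.746, 0.547 and -0.187. A pairing with PBS is not settled either.

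Alternatives were minimums of 5 and 20 calls, flanks of 2 kb and none, all 12 libraries in 1 fit, the replicate block, the Y share as a term, edgeR 4.0.16, an unweighted mean over CpGs tested with limma, and each library left out. Text names all 9 genes, for each gene tiles with the largest gain or loss, up to 5 called other B cell genes per direction, the called gene with the largest gain and loss in each other list, and the 5 genes most like the mean of the 9. The Pax5 tile at chr4:44704001-44705000, the Ebf1 tile across its start and single CpGs were chosen after their values were seen. The genes and lists were chosen with earlier results of these data known.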

Additional observations from a re-analysis of the deposited data

Results flagged for a closer look

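Among 30 groups of 4 libraries (the 9 gene regions and the Y share in 3 groups), 7 had a library farther from the others than Dixon's 95% critical value for 4 samples allows, where chance gives about 1 in 20 groups. Ebf1 was at 36.5% in CD11b-negative library 2, against 30.5 to 30.6% in the others of that group. Cd79a was at 0.993% in CD11b-positive library 1, against 0.522 to 0.549%. Cd79b was at 14.5% in CD11b-negative library 4, against 19.9 to 20.2%. Ms4a1 was at 70.0% in PBS library 1, against 75.9 to 76.7%, and Cd37 at 81.9% in CD11b-positive library 2, against 66.1 to 68.6%. The Y share was 41.3 calls per 1e6 autosomal calls in CD11b-positive library 2 and 40.2 in CD11b-negative library 2. The libraries numbered 2 of both treated groups thus account for 4 of the 7.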

How the results depend on the processing

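For CD11b-positive against PBS, 4 genes and 24 tiles were called (3742 of all regions and 31547 of all tiles). One fit of all 12 libraries called 2 genes and 21 tiles (2633 of all regions and 28275 of all tiles). The Y share as a term called 0 genes, 0 tiles, 0 of all regions and 42 of all tiles. The cause was not tested. Leaving out each library in turn gave 4 genes each time and 18 to 24 tiles. These fits called 2914 to 3990 of all regions and 27198 to 32091 of all tiles. Without CD11b-positive library 1, 23 of the 24 tiles called were higher and 1 lower. With each library left out, differences of the called genes ran from 18.4 to 27.9 points for Blk and 16.3 to 21.6 for Cd37. They ran from 11.6 to 14.5 for Ms4a1 and 10.2 to 14.3 for Cd22. Blk had 8.35 points with the gene body only, and Cd72 12.6 points with 2 kb and 1.39 with the gene body only. At least 20 calls gave no Blk value, the gene body no Cd79a or Cd79b value and 2 kb no Cd79b value. Cd79a turned to -0.002506 without CD11b-positive library 1, in a range up to 0.166 with each library left out.

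In CD11b-negative against PBS 0 genes and 0 tiles were called under every alternative run. Over all regions 1 was called without CD11b-negative library 3, and 3 of all tiles without CD11b-negative library 2. Signs turned for Cd72 (-2.02 points, gene body only), Cd79b (0.0750 without CD11b-negative library 4, the top of a range from -3.03 with each library left out) and Cd22 (-0.369 without CD11b-negative library 2, the low end of a range up to 8.75).

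For CD11b-positive against CD11b-negative, leaving out each library gave 0 to 3 genes and 0 to 12 tiles, with calls only without CD11b-negative library 2 (3310 of all regions and 17774 of all tiles). Without library 2 of both groups 3 genes and 13 tiles were called (2434 regions, 17707 tiles). The replicate block called 0 genes, 9 tiles, 105 of all regions and 11704 of all tiles. Blk turned to -3.04 points with the Y share and -5.86 with the gene body only, Cd37 to -0.119 with the Y share, and Cd72 from -0.507 to 1.33 (unweighted mean), 4.81 (2 kb) and 3.41 (gene body only). The replicate block changed no call of a gene. For CD11b-positive against PBS it gave 23 tiles, 22 higher and 1 lower, against 27395 of all tiles higher and 3329 lower. Same-number correlations of CD11b-positive with PBS ran from -0.0978 to 0.727.

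Depth limits Blk, Cd79b and Ms4a1 most: half-widths of their Wilson intervals reached 5.28, 4.93 and 6.64 points per library, against at most 1.34 for the other genes.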
